A study of Mus musculus and Rattus norvegicus with 24 samples.

Results

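Myh6 and Myh7, the genes of the alpha and beta cardiac myosin heavy chains, were followed through 24 single cells that the labels call cardiomyocytes. They are 2 of the 9595 genes in the deposited table of raw counts, and both were chosen by name. The cells fall into 3 groups of 8. Adult cells were wild-type ventricular cardiomyocytes isolated from adult rats. Transplanted cells came from a mouse embryonic stem cell line carrying Isl1-Cre, Rosa-RFP and aMHC-GFP. They were placed by injection in the heart of a newborn rat, the host, and later recovered from it. Their label of 30 days is read here as time spent in the host, which would then no longer be newborn at recovery. The protocol can also be read otherwise, so the age of the host at recovery is uncertain. Cultured cells came from stem cells of the same genotype as the transplanted cells and were kept in a dish for 30 days. The name aMHC-GFP refers to the alpha chain, whose gene is measured here. Cells were sorted or picked by hand, and whether GFP served to choose them is not given in the sources used here. The labels name no animal, host or culture. Each group therefore counts as 1 sample and the groups were compared without a test. Intervals in brackets are exact 95% intervals for counting error only.

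A myosin heavy chain carries the motor head that pulls on actin and the long tail that packs into the thick filament. The alpha chain hydrolyses ATP faster and contracts faster, and the beta chain is slower and more economical. In the ventricle of mice and rats, Myh7 is the main form before birth and Myh6 after it. In rodents thyroid hormone raises Myh6 and lowers Myh7, and pressure load or low thyroid hormone brings Myh7 back. The balance between these genes is a common measure of how mature a rodent cardiomyocyte is.

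Both genes lie on the minus strand of mouse chromosome 14 (mm10, GENCODE M21), Myh6 (ENSMUSG00000040752.16) at 54941921 to 54966927 and Myh7 (ENSMUSG00000053093.16) at 54970684 to 54994626, with 3756 bp between them. Another gene of the locus, Mhrt, is transcribed from the opposite strand at 54968678 to 54974349. It is a long noncoding RNA known as Myheart, and it overlaps the 3′ end of Myh7 over 3666 bp. Of its exon bases, 39.9% lie inside Myh7 exons, and 5.62% of Myh7 exon bases lie inside Mhrt exons. Exons of any other annotated gene cover 13.3% of Myh7 exon bases and 1.69% of Myh6 exon bases. The part of this overlap in the counts was not tested. Mhrt was chosen after its values were seen. Each heavy chain gene also hosts a microRNA in an intron, Mir208a in intron 29 of Myh6 and Mir208b in intron 31 of Myh7, counted in the transcripts ENSMUST00000226297.1 and ENSMUST00000102803.10. The main arms are shown because they make the pairing of the locus visible: they share the seed, given in capitals, and differ at 3 of 22 bases (sequences from RefSeq, GRCm38.p6).
mmu-miR-208a-3p: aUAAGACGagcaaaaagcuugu
mmu-miR-208b-3p: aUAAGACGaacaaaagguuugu
Mir208a had 1 count, in cultured cell D, and none in adult or transplanted cells, and Mir208b was not analysed here. These counts are of precursor or host sequence in a library of long RNA, and mature microRNAs were not measured.

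The coding sequences of the genes are close enough for reads to be shared. Over 5802 aligned bases 91.7% were identical, and the longest identical run was 245 bases. Of all stretches of 50 bases in the Myh6 transcript, 23.0% also occurred in Myh7 with no mismatch, and of stretches of 100 bases 11.6% did. The sources used here give neither the read length nor the treatment of reads with several positions, so how such reads were counted was not tested. The sequences below show why some stretches separate the genes and others cannot. The first is the earliest stretch of 100 coding bases with no difference. It runs over coding bases 421 to 520 of both genes, in exons 5 and 6 of Myh6 (chr14:54963390-54963583, intron included) and exons 6 and 7 of Myh7 (chr14:54991726-54991919).
Myh6 and Myh7: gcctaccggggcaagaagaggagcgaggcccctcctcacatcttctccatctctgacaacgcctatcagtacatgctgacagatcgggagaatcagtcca
The second is the stretch of 100 bases with the most differences, 35 in all, given in capitals. It lies at coding bases 3240 to 3339 of Myh6 (exons 24 and 25, chr14:54952249-54952585) and 3234 to 3333 of Myh7 (exons 26 and 27, chr14:54980324-54982177).
Myh6: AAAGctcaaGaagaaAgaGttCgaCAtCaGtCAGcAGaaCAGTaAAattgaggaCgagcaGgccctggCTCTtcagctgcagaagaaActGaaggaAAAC
Myh7: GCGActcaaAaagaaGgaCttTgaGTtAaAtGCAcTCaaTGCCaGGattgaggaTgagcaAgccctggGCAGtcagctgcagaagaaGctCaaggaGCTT

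**Figure D1:**
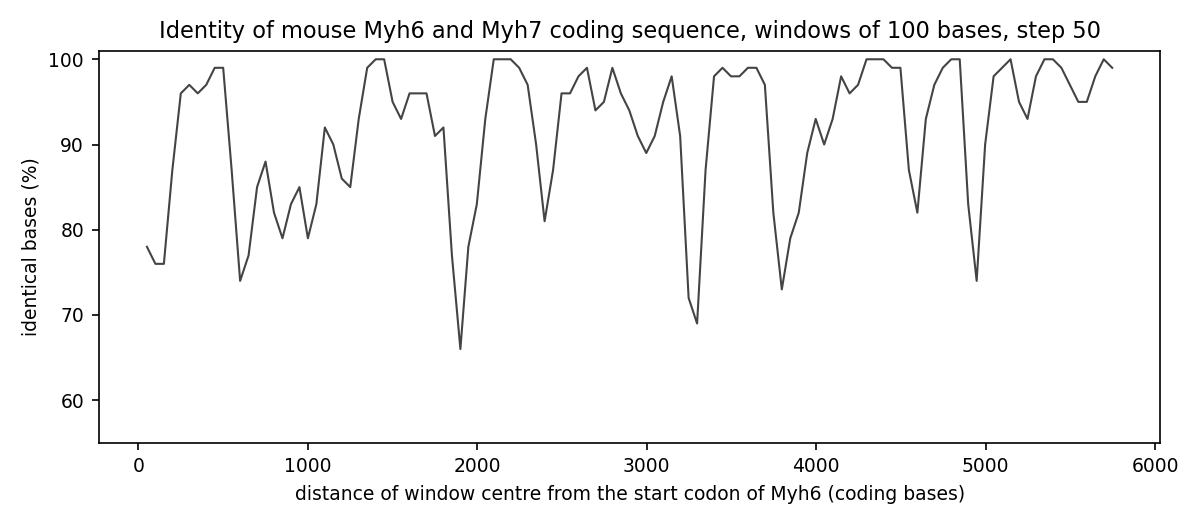
Percent of identical bases (y axis) between the mouse Myh6 and Myh7 coding sequences in windows of 100 aligned bases, moved in steps of 50, against the distance of the window's centre from the start codon of Myh6 (x axis). The median window was 95% identical and windows ran from 66% to 100%, so stretches that separate the genes alternate along the sequence with stretches that cannot.

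Total counts of the listed genes ran from 108546 to 223744 in adult cells, from 88796 to 344224 in transplanted cells and from 16099 to 60789 in cultured cells. The 12 cardiomyocyte markers (among them Tnnt2, Tnni3, Actc1, Myl2 and Ttn) took 18.4 to 22.1% of counts per adult cell, 16.7 to 23.8% per transplanted cell and 0 to 15.7% per cultured cell. Without Ttn, a titin gene with a very long transcript, the other 11 took 17.6 to 21.8%, 16.4 to 23.7% and 0 to 1.73% of counts. The markers were thus low in every cultured cell: Tnni3 and Myl2 had counts in cultured A alone, Mybpc3 had none, and F, G and H held 0.319%, 0% and 0.00419% in all. Fibroblast markers (8 of 11 listed) took at most 0.000582% of an adult cell, 0.000511% of a transplanted cell and 0.209% of a cultured cell. Atrial markers (5 of 7 listed) took at most 0.00716% of an adult cell, none of a transplanted cell and 0.00419 to 1.17% of cultured cells, where Myl7, an atrial light chain, had 199, 0, 12, 18, 3, 78, 20 and 1 counts from A to H. The part of these markers in the results on Myh6 and Myh7 was not tested. Rn45s, the ribosomal RNA precursor, took 0.748 to 1.95% of counts in adult, 0.547 to 1.78% in transplanted and 1.29 to 13.2% in cultured cells.

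Myh6 was detected in 8 of 8 adult, 8 of 8 transplanted and 5 of 8 cultured cells. In adult cells A to H it had 429, 204, 137, 117, 88, 325, 359 and 204 counts. In transplanted cells A to H it had 141, 282, 96, 316, 139, 242, 143 and 66 counts. Cultured cells had 3, 73, 175, 300, 5, 0, 0 and 0 in the same order. All adult and transplanted cells thus held the transcript, and 3 cultured cells showed none. Scaled to a total of 1000000 counts per cell (CPM), these gave a range of 628 to 2994 CPM with a median of 1346 in adult cells, 192 to 2271 CPM with a median of 1254 in transplanted cells, and 0 to 10758 CPM with a median of 231 in cultured cells. Adult and transplanted cells thus overlapped over most of their range, and cultured cells lay on both sides of them. Cultured C and D, at 10561 and 10758 CPM, were above every adult and transplanted cell. Cultured A, F, G and H were below all of them, at 151 CPM in A and 0 in the others, where 3 counts, the limit that a count of 0 allows, would be 126 to 162 CPM.

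Summed over the 8 cells of a group, Myh6 stood at 1465 CPM (1399 to 1533) in adult, 1094 CPM (1038 to 1152) in transplanted and 2697 CPM (2477 to 2930, 1436 without cultured D) in cultured cells. Adult was 1.34-fold higher than transplanted (1.25 to 1.44). Adult reads came from rats and were counted on mouse genes, so in every comparison with adult cells the species and the group cannot be told apart. Adult was 1.84-fold lower than cultured (1.67 to 2.02), a direction that ended without cultured D (ratio 1.02) and with TMM scaling (ratio 1.03). Transplanted was 2.47-fold lower than cultured (2.23 to 2.72, 1.31 without cultured D). The summed order of the groups was therefore not the order of their median cells, in which the cultured group was lowest, and most of the cultured sum came from cells C and D.

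Myh7 was scarce in all but a few adult and transplanted cells and abundant in 4 cultured cells. In adult cells A to H it had 1, 1, 13, 136, 0, 1, 3 and 0 counts. In transplanted cells A to H it had 0, 0, 1, 2, 20, 4, 2 and 0 counts. Cultured cells had 0, 19, 116, 39, 42, 0, 0 and 0 in that order. Counts over 10 were thus found in 2 adult, 1 transplanted and 4 cultured cells. The median was 8.84 CPM in the adult, 12.0 CPM in the transplanted and 156 CPM in the cultured group. The adult and transplanted median counts were 1 and 1.5, where 3 counts would be 20.2 and 20.5 CPM in the median cell. No cultured cell lay near 156 CPM, which is the midpoint between the cells at 0 and cell B at 313 CPM. A single cell held most of the counts of its group: adult D had 87.7% of the adult counts, transplanted E 69.0% of the transplanted counts and cultured C 53.7% of the cultured counts. At 886 CPM, adult D was 1 of 5 cells in the whole series over 300 CPM, with cultured B (313 CPM), C (7000 CPM), D (1399 CPM) and E (2609 CPM). The next adult cell, C, had 90.2 CPM, and transplanted E had 102 CPM.

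The group sums of Myh7 were 122 CPM (103 to 143) in adult, 22.3 CPM (14.9 to 32.0, 8.13 without transplanted E) in transplanted and 1048 CPM (913 to 1197, 527 without cultured C) in cultured cells. Transplanted cells were 47.1-fold lower than cultured cells (31.9 to 72.0), or 129-fold without transplanted E and 23.7-fold without cultured C. Adult cells were 8.59-fold lower than cultured cells (6.96 to 10.6), or 61.6-fold without adult D and 4.33-fold without cultured C. Among all genes with at least 10 counts over both groups, 64.0% were at least 2-fold lower in transplanted than in cultured cells and 62.1% in adult than in cultured cells, so most genes passed that fold in the same direction. Adult cells were 5.48-fold higher than transplanted cells in Myh7 (3.67 to 8.45), in a comparison where 44.3% of genes passed 2-fold upwards and 34.8% downwards. That difference rested on adult D: without it adult cells were 1.31-fold lower, with 17.0 CPM, and without transplanted E adult cells were 15.0-fold higher.

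Detection depended on depth. Myh7 had a count in 6 adult, 5 transplanted and 4 cultured cells as deposited. With each cell thinned to 16099 counts, the depth of the shallowest cell, the expected number of cells with a count was 2.40 in adult, 1.85 in transplanted and 3.997 in cultured cells. For Myh6 the expected numbers were 8.00, 7.96 and 4.99. At equal depth the cultured group thus had the most cells with Myh7 and the fewest with Myh6.

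**Figure D2:**
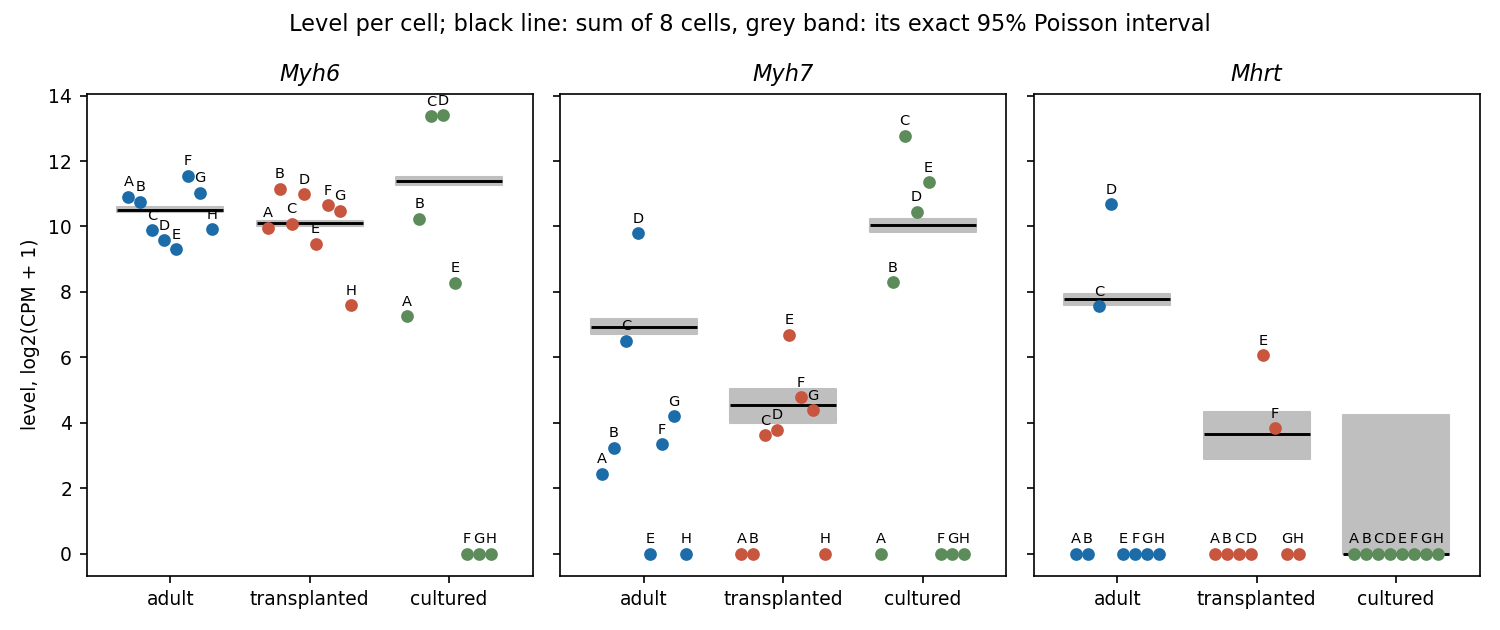
Level of Myh6, Myh7 and the antisense RNA Mhrt in each cell, as log2(CPM + 1) on the y axis, with adult, transplanted and cultured cells along the x axis and letters naming the cells. Black lines are the level of the 8 cells summed and grey bands its exact 95% Poisson interval, and for Myh7 the adult and transplanted lines lie above most cells of their group because adult D and transplanted E carry most of the counts.

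The balance between the chains needs no scaling for depth, since both counts come from the same cell. Of the counts of both genes together, Myh7 took 7.68% in adult cells (6.56 to 8.93, 155 of 2018 counts, 1.08% without D), 1.99% in transplanted cells (1.34 to 2.85, 29 of 1454, 0.695% without E) and 28.0% in cultured cells (24.8 to 31.3, 216 of 772). The Myh7 to Myh6 ratio was 19.1-fold lower in transplanted than in cultured cells (12.7 to 29.5, 55.5 without transplanted E). It was 4.67-fold lower in adult than in cultured cells (3.70 to 5.90, 35.7 without adult D). It was 4.09-fold higher in adult than in transplanted cells (2.72 to 6.34), was 1.87-fold lower without adult D and 11.9-fold higher without transplanted E. Neither gene had a count in cultured F, G or H, which so took no part in any of these shares.

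By cell, the share was under 1% in 6 of 8 adult cells, with 0 in E and H. Adult C had 8.67% (4.70 to 14.4, 150 counts of both genes). Adult D had 53.8% (47.4 to 60, 253 counts), so that its Myh7 counts outnumbered its Myh6 counts. In 7 of 8 transplanted cells the share was 0 to 1.63%, and transplanted E had 12.6% (7.86 to 18.8, 159 counts). The 4 cultured cells with at least 10 counts of both genes all lay above every transplanted cell but E and every adult cell but D. Cell B had 20.7% (12.9 to 30.4), C 39.9% (34.2 to 45.7), D 11.5% (8.31 to 15.4) and E 89.4% (76.9 to 96.5, 47 counts). Cultured cells therefore ran from mostly Myh6 to mostly Myh7, transplanted cells were nearly all Myh6, and adult cells were nearly all Myh6 except D and, to a smaller extent, C. The highest transplanted share, in E, lay above the lowest cultured share, in D, so these groups overlapped in 1 cell each, and adult D lay inside the cultured range.

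**Figure D3:**
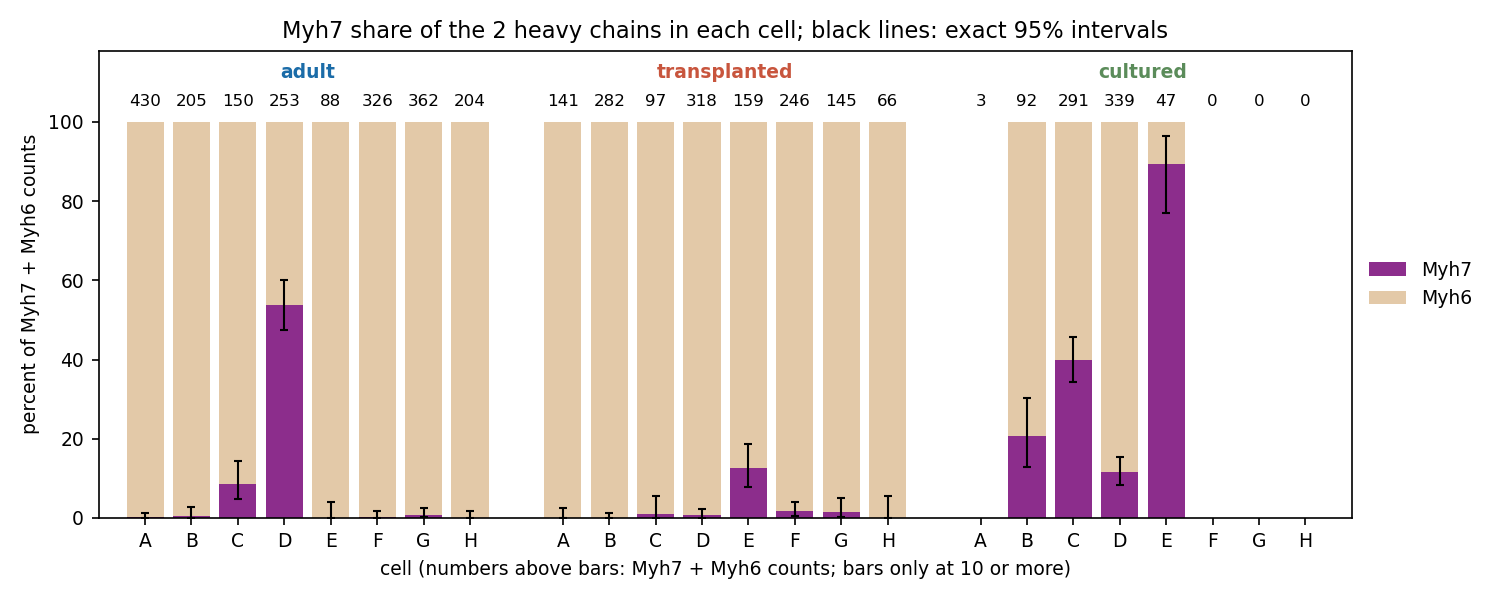
Share of Myh7 (dark) and Myh6 (light) in the counts of both genes, in percent on the y axis, for each adult, transplanted and cultured cell. Numbers above the bars are the counts of both genes, black lines are exact 95% intervals, and cells with fewer than 10 counts have no bar. Adult D, at 53.8%, lies inside the range of the cultured cells, and transplanted E, at 12.6%, is the highest of its group.

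The adult and transplanted cells with the most Myh7 were second lowest of their groups in Myh6, and the cultured cell with the most Myh7, C, was second highest of its group. Adult D had 762 CPM of Myh6, with the other adult cells at 628 to 2994 CPM and only E below it. Transplanted E had 710 CPM, with the others at 192 to 2271 CPM and only H below it. Neither cell stood out in Rn45s, at 1.48% in adult D and 1.11% in transplanted E. Adult D had the fewest detected genes of its group, 635, against 706 to 1701 in the others, and transplanted E had 583, inside the 553 to 1427 of the others. The part of these values in the Myh7 level was not tested.

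In cultured cells the counts of both chains lay in particular libraries. Rpph1, the RNA of RNase P, took 0.0202%, 4.96%, 2.51%, 5.48%, 5.30%, 0.0541%, 0.0574% and 0.0293% of the counts, from A to H. The 4 cells with Myh7 counts, B to E, were the 4 with the highest Rpph1 shares. Their Rn45s shares, 8.59 to 13.2%, were also above the 1.29 to 5.44% of A, F, G and H. They were also the 4 with the most Ttn, at 44169 to 150806 CPM, against 707 CPM in A and 0 in F, G and H. In no transplanted cell, and in only 1 adult cell at 0.00179%, was Rpph1 counted at all. The part of these values in the cultured levels was not tested. The Myh7 share ran from 11.5 to 89.4% among B to E themselves.

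**Figure D4:**
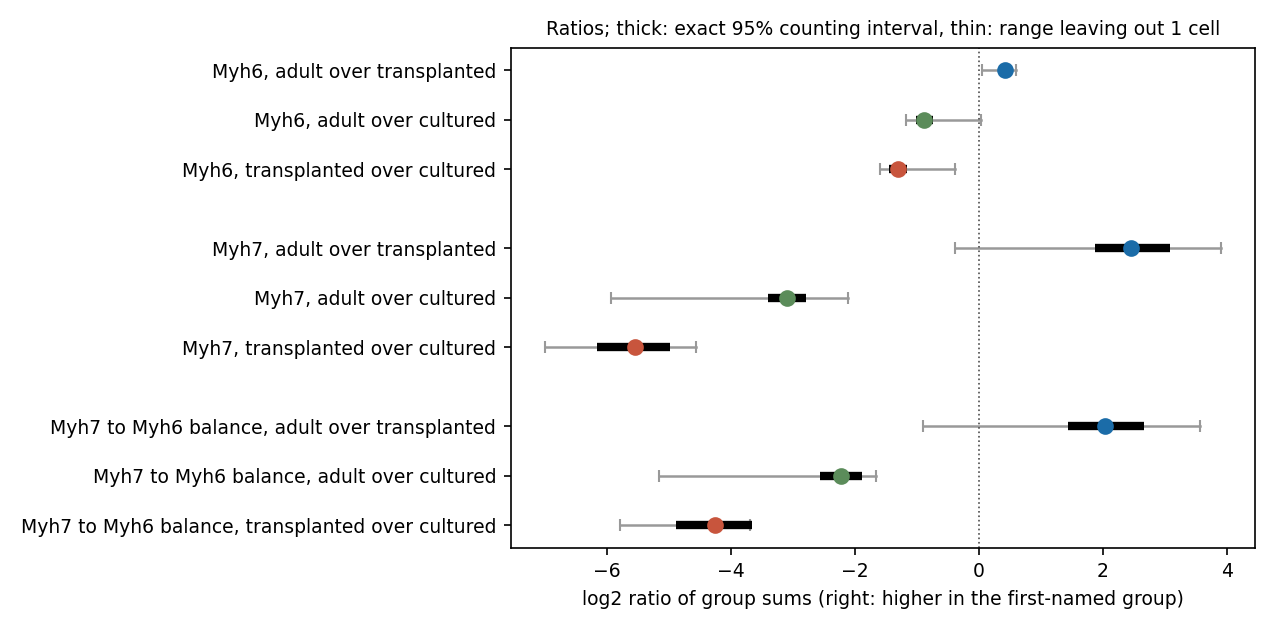
Log2 ratio of group sums (x axis) for Myh6, Myh7 and the Myh7 to Myh6 balance in the 3 comparisons, each named with the group on top first. Points are the ratios, thick lines exact 95% counting intervals and thin lines the range when 1 cell at a time is left out. The balance in transplanted over cultured cells stays far left of 0 throughout, while Myh7 and the balance in adult over transplanted cells cross 0 without adult D, and Myh6 in adult over cultured cells reaches it without cultured D.

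Mhrt is known in mice as an RNA of the adult heart that protects against load. It was counted in the adult and transplanted cells with the most Myh7. It had 27 counts in adult C and 251 in adult D and none in the other 6 adult cells. It had 13 counts in transplanted E and 2 in transplanted F and none in the other 6 transplanted cells. In the 8 cultured cells it had no count, although Myh7 had 216 there. The adult cells with Mhrt were the 2 highest in Myh7, and the transplanted cells with Mhrt were likewise the 2 highest of their group.

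Mhrt stood at 219 CPM (194 to 246, 24.2 without adult D) in adult and 11.5 CPM (6.44 to 19.0, 1.81 without transplanted E) in transplanted cells. Adult cells were 19.0-fold higher (11.3 to 34.4), or 2.098-fold without adult D and 121-fold without transplanted E. Against cultured cells, where 3 counts would be 14.6 CPM, adult cells were at least 15.0-fold higher, and without adult D their 24.2 CPM still lay above that limit. The adult values without D rest on 1 cell, since all 27 counts left were in adult C. The transplanted level lies below the limit of 14.6 CPM, so no ratio is given. Of the counts of Mhrt and Myh7 together, Mhrt took 64.9% in adult D (59.9 to 69.6), 67.5% in adult C (50.9 to 81.4) and 39.4% in transplanted E (22.9 to 57.9). It took 0 of 19, 116, 39 and 42 in cultured B to E, which allows at most 17.6%, 3.13%, 9.03% and 8.41%. The cDNA was amplified and cut with Tn5, and the strand setting of the count is not given in the sources used here. Reads of Myh7 and of Mhrt from the exons they share therefore cannot be told apart. The same holds for reads of unspliced Myh7 RNA in any Mhrt exon within the overlap of 3666 bp. How much of the Mhrt count came from Myh7 RNA was not tested.

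**Figure D5:**
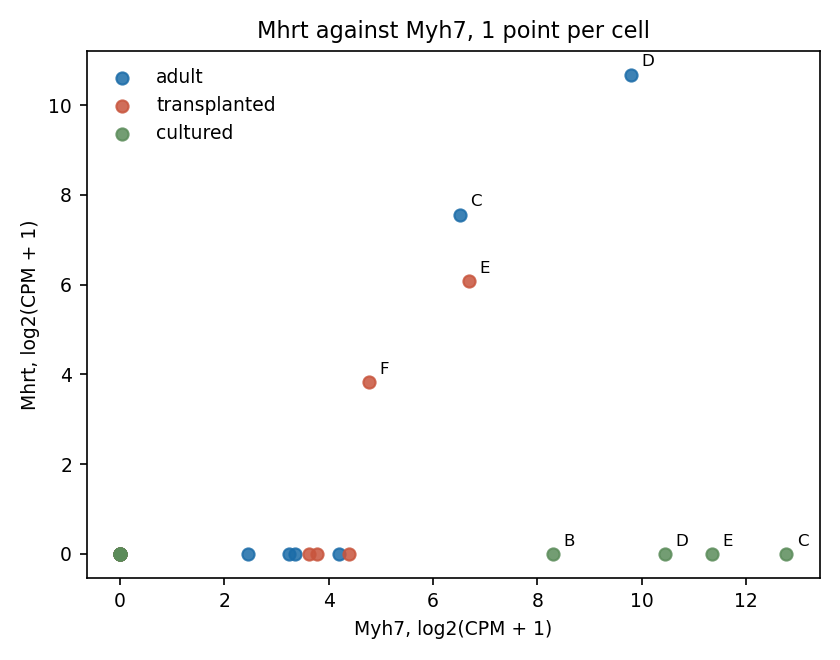
Level of Mhrt (y axis) against Myh7 (x axis), both as log2(CPM + 1), with 1 point per cell and letters for cells with Mhrt or with more than 10 Myh7 counts. Adult C and D and transplanted E and F rise together on both axes, while cultured B to E lie along the bottom with high Myh7 and no Mhrt.

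The other listed myosin heavy chains had few counts beside Myh6 in the group sums. Of 14 heavy chain genes named, 6 were among the listed genes. Myh10, a nonmuscle heavy chain, had 24, 2 and 5 counts in cultured B, C and E and none elsewhere. Myh14, another nonmuscle chain, had 17 counts in transplanted B and 4 in cultured G. Myh9 had 1 count in transplanted D and 1 in cultured B, and Myh7b, the ancient cardiac paralog, had none in any cell. Of the counts of listed heavy chains, nearly all in each group sum were thus of the alpha and beta chains. Single cultured cells differed. Cell B had 24 counts of Myh10 beside 19 of Myh7, and cell G had 4 of Myh14 and none of Myh6 or Myh7. Heavy chains that were not listed could not be assessed.

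Levels between genes were compared per kilobase of annotated exon. Those lengths are unions over all transcripts, 6726 bp for Myh6 and 8616 bp for Myh7. The transcripts used for the alignment have 6008 and 6135 bases, so this scale lowers Myh7 against Myh6. On that scale Myh6 ranked 268th of 3637 genes with counts in adult, 326th of 3110 in transplanted and 62nd of 7255 in cultured cells, and Myh7 ranked 1385th, 2083rd and 375th. Each heavy chain head binds an essential and a regulatory light chain, in the ventricle Myl3 and Myl2. Per kilobase, Myl2 was 91.1 times the level of Myh6 in adult, 134 times in transplanted and 0.558 times in cultured cells. Myl3 was 59.3, 92.6 and 0.112 times the level of Myh6. Mybpc3, the cardiac myosin binding protein of the thick filament, was 0.358 and 0.967 times the level of Myh6 in adult and transplanted cells and had no count in cultured cells. All cultured Myl2 counts, 90, were in cell A, which had 3 counts of Myh6 and none of Myh7, whereas cultured B to E had no count of Myl2. Myl7, named after its values were seen, was 6.79 times the level of Myh6 in cultured cells and had no count in adult or transplanted cells. Myl12a, a light chain of nonmuscle myosin, had 0 to 816 counts per adult cell, 131 to 1646 per transplanted cell and 11, 4 and 7 in cultured A, G and H. In group sums the ventricular light chains were therefore far above Myh6 per kilobase in adult and transplanted cells and below it in cultured cells. The cultured sums mix unlike cells. Cell A had 90 counts of Myl2, 9 of Myl3 and 199 of Myl7 beside 3 of Myh6, and cell E had 7 of Myl3 beside 5 of Myh6. Cells C and D had 2 and 0 of Myl3 and 12 and 18 of Myl7 beside 175 and 300 of Myh6. How evenly long transcripts were covered was not tested.

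Of the other thick filament genes, 12 were measured. In adult against transplanted cells, 2 were higher by 2-fold or more and 5 lower, where 44.3% of all genes were higher and 34.8% lower. The median log2 ratio was -0.55, against 0.37 over all genes. Leaving out single cells gave 5 higher without transplanted B, 1 higher without adult F and 3 lower without transplanted D. In adult against cultured cells, 4 were higher and 6 lower (median -0.93, against -4.04), where 23.0% of all genes were higher and 62.1% lower. In transplanted against cultured cells, 4 were higher and 7 lower (median -1.29, against -4.53), where 22.5% of all genes were higher and 64.0% lower. The medians against cultured cells turned positive without single cells, to 0.26 in adult cells without cultured E and 0.73 in transplanted cells without cultured C. Smyd1, a methyltransferase that works on myosin during sarcomere assembly, had 2 and 1 counts in adult A and G, 28, 12 and 1 in transplanted A, B and G, and 190, 24, 4 and 9 in cultured B, C, E and G.

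Thyroid hormone acts on both heavy chain genes through nuclear receptors, and 15 of 22 genes of its pathway were listed. In adult against transplanted cells, 6 of 6 measured genes were higher by 2-fold or more, beside 44.3% of all genes, and 3 were without adult B. Their counts were uneven. Rxrg, a retinoid X receptor that pairs with the thyroid receptor, had 333 counts in adult F and none in any other cell. Thra, the main thyroid receptor of heart, had 21 and 5 counts in adult B and C, 4 and 1 in transplanted B and H and 2 in cultured B. Both were named after their values were seen. In adult against cultured cells, 2 of 9 were higher (Thra and Rxrg) and 5 lower, beside 23.0% and 62.1% of all genes, a median log2 ratio of -2.71 that was -5.07 without adult B and -0.01 without cultured B. In transplanted against cultured cells, 7 of 7 were lower, beside 64.0% of all genes, a median of -5.88 beside -4.53, and 3 were left, all lower, without cultured B. Ncor1, the receptors' corepressor, had 105, 8, 4, 6, 12 and 99 counts in cultured B, C, E, F, G and H, 1 count in transplanted G and none in adult cells. Med13, a Mediator subunit that the miR-208a of the Myh6 intron is known to repress in mice, had 13, 44 and 90 counts in cultured B, E and F, 1 and 8 in adult B and G and none in transplanted cells. Ncoa2, a coactivator of nuclear receptors, had 5 and 137 counts in cultured B and D, 1 in transplanted A and none in adult cells. The pathway's counts thus came mostly from a few cells each.

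Among genes known as thyroid hormone targets in heart, 5 of 8 measured were higher by 2-fold or more and 3 lower in adult against cultured cells, beside 23.0% and 62.1% of all genes. The list was not split by the direction in which the hormone moves a gene, and the 5 hold both Atp2a2 and its inhibitor Pln. The counts of this list are therefore not read as more or less hormone action. In transplanted against cultured cells, 4 of 8 were higher and 3 lower, beside 22.5% and 64.0%. In adult against transplanted cells, 2 of 9 were higher and 3 lower, beside 44.3% and 34.8%. Single cells moved these counts: without adult G, 3 were higher and 4 lower in adult against cultured cells, and without transplanted G, 1 was lower in adult against transplanted cells. Atp2a2, the calcium pump of the sarcoplasmic reticulum, which thyroid hormone raises together with Myh6, stood at 3574 CPM in adult, 2382 CPM in transplanted and 344 CPM in cultured cells. It was thus lowest in cultured cells, the group with the highest sum of Myh6, and adult cells were 1.13-fold lower than transplanted cells without adult H. Adult D, the adult cell with the most Myh7, had 94 counts of Atp2a2 and its lowest adult level, 612 CPM, with a median of 2145 CPM in the group.

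Of 36 listed regulators of the heavy chain genes, 17 were measured in adult against transplanted cells, with 9 higher and 7 lower, beside 44.3% and 34.8% of all genes. In adult against cultured cells 23 were measured, with 1 higher and 17 lower, beside 23.0% and 62.1%. In transplanted against cultured cells 25 were, with 3 higher and 19 lower, beside 22.5% and 64.0%. Median log2 ratios against cultured cells were -4.62 in adult and -4.88 in transplanted cells, beside the -4.04 and -4.53 of all genes. Without adult G, 6 were higher and 8 lower in adult against transplanted cells, while in transplanted against cultured cells 1 was higher without transplanted G and 5 without transplanted H. Mef2a, a muscle transcription factor, had 186 and 1 counts in adult A and C, 1 in transplanted G, and 3, 45 and 45 in cultured A, B and F. Mef2c, of the same family, had 1 and 102 counts in adult C and F, none in transplanted cells, and 20, 1 and 82 in cultured B, E and H. Myocd, the coactivator myocardin, had 35, 25, 59 and 23 counts in cultured B, C, D and E and none in the other cultured cells. It also had 100 counts in transplanted G and 3 in adult D. Within the cultured group the cells with Myocd were those with Myh7. The same cells, B to E, were also the only cultured cells with Slc8a1 and the highest in Rpph1, Rn45s and Ttn. The match is thus not particular to Myocd. Tead1, a factor that binds the M-CAT element known from the Myh7 promoter, was named after its values were seen, and had counts in 4 adult, 0 transplanted and 7 cultured cells.

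Of listed load and stress genes of rodent heart, 14 were measured in adult against cultured cells. The list is not uniform in direction, since it holds Atp2a2, which thyroid hormone raises together with Myh6, and its inhibitor Pln. With both among them, 9 were higher by 2-fold or more and 4 lower, beside 23.0% and 62.1% of all genes. The median log2 ratio was 3.20, beside -4.04 for all genes. Of 12 in adult against transplanted cells, 6 were higher and 2 lower, beside 44.3% and 34.8%, a median of 1.03 that was 1.90 without transplanted B, and 1 was lower without transplanted D. Of 15 in transplanted against cultured cells, 7 were higher, again with Atp2a2 and Pln, and 6 lower, beside 22.5% and 64.0%. Pln, phospholamban, the inhibitor of the calcium pump, had 463 to 2441 counts per adult cell, 496 to 1495 per transplanted cell and 17 and 2 in cultured A and B. Csrp3, a protein of the Z-disc, had 242 to 1209 counts per adult cell, 535 to 1560 per transplanted cell and 1 and 19 in cultured A and E. The genes named next were chosen with their values known. Ankrd1, a stretch-responsive protein of the sarcomere, was highest of the adult cells in D, with 429 counts, against 1 to 137 in the others. Acta1, skeletal actin, had no count in adult D and its most, 511, in adult C. Nppb, the B-type natriuretic peptide, had 109 counts in adult D and 1 to 249 in the others. Transplanted E had no count of Ankrd1, Acta1 or Nppb, and none of the 3 was counted in any cultured cell. The cells with the highest Myh7 of the 3 groups thus did not share high counts of these genes.

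Over the 24 cells, the genes whose CPM ranked most like that of Myh6 were Ttn (Spearman's rho 0.70), the giant spring of the sarcomere, Slk (0.67), a kinase, Ankrd23 (0.66), a partner of titin, and Ryr2 (0.61), the calcium release channel. Those most like Myh7 were Psme4 (0.75), a proteasome activator, Ttn (0.61), Slc8a1 (0.60), the sodium-calcium exchanger, Svil (0.60), an actin-binding protein, and Ociad1 (0.53). The ranking covered 705 genes with a count in at least 8 cells. Each pair of values shares a library and its depth, and 3 groups of unlike depth enter together. Over the 16 adult and transplanted cells alone the genes were others, except Ankrd23: Immt, Hint1, Ankrd23, Myzap and Pdlim5 for Myh6 (0.74 to 0.68) and Mdh2, Ptgds, Tmem38a, Ndufab1 and Sdhc for Myh7 (0.73 to 0.50). Myh6 and Myh7 themselves had a rho of 0.43 over 24 cells of -0.04 over those 16 and of 0.83 over the 8 cultured cells, 3 of which had no count of either, and Myh7 and Mhrt had 0.77 over the 16, with 4 cells holding counts of both. These values describe the cells and carry no test.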

How the data were processed

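The authors deposited whole-number counts per gene for 24 single cells, sorted or picked by hand, copied into cDNA, amplified and cut with Tn5, per the labels' protocols. The labels mention no molecular identifiers, so a count is taken as a read. Per the submitters' processing notes the tools include TopHat2 2.1.0, HTSeq and DESeq2, with mouse build mm10, for rat cells too. The sources used here give no annotation, strand setting, handling of shared reads or rule behind the 9595 genes. How rat reads fare on mouse genes was not tested. Counts were summed over the 8 cells of a group, which follows the titles, and scaled to CPM of a total of 1000000. Intervals at 95% are exact Poisson (levels), conditional binomial (ratios), conditional odds ratio (balance) and Clopper-Pearson (shares), and cover counting error only, since PCR copies are not independent molecules. For ratios, a summed count of 0 was replaced by 3 counts per group. A gene was measured in a comparison with at least 10 counts over both groups and called at 2-fold. Shares per cell need at least 10 counts. Thinning used the exact hypergeometric expectation. Exon lengths came from GENCODE M21 (9343 genes matched by symbol, 180 by an older name), as unions over all transcripts. Within groups, every pair of cells differed by more than sampling noise (chi-square per degree of freedom at least 13.6). Alternatives used TMM factors (edgeR 4.0.16) and DESeq2's size factors (version 1.42.0), taken from group sums with no model fitted. Interval and call code was tested on simulated counts. Members, gene lists and rules were chosen with earlier results of these data known. The rule named every heavy chain with counts, 3 genes per list by highest CPM and the 5 genes most like each member; 1 gene that the rule named is not reported here.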

Additional observations from a re-analysis of the deposited data

Results flagged for a closer look

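In 7 of 11 sets of cells tested, 1 cell lay apart from its group by the gap to its nearest neighbour. For normally spread values chance alone gives this in about 1 of 20 sets, but these sparse counts are not so spread. Mhrt had counts in 2 of 8 adult and 2 of 8 transplanted cells. The median Myh7 counts were 1 and 1.5. The sets also overlap, since Myh7, its share and Mhrt flagged the same cell within each of these groups. The rate of 1 in 20 is therefore no measure for the 7 sets, and no excess is read from them. In adult cells, D lay apart in Myh7 (886 CPM), in Mhrt (1634 CPM) and in the Myh7 share of both heavy chains (53.8%). In transplanted cells, E lay apart in the same measures, at 102 CPM, 66.4 CPM and 12.6%. In cultured cells, C lay apart in Myh7, at 7000.2 CPM. In Myh6 no cell of any group was set apart in this way.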

How the results depend on the processing

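No paired analysis was possible because the letters only name cells and no test between groups was made. Over 24 results on levels, ratios, shares and list counts, 4 values reversed. Adult over cultured Myh6 (ratio 0.543) became 1.03 with TMM factors and 1.02 without cultured D. Without adult D, adult over transplanted Myh7 (5.48) became 0.764 and the balance (4.09) became 0.535. The balance in transplanted over cultured and adult over cultured cells kept its direction with each cell left out in turn and with equal cell weights. Exon length cancels in the balance and could not move it, and the other scalings were not applied to it. TMM factors shifted levels by 0.31, 0.31 and -0.61 (log2) in adult, transplanted and cultured cells. They gave Myh6 at 1814, 1351 and 1763 CPM and Myh7 at 151 CPM in adult and 685 CPM in cultured cells, with transplanted over cultured ratios of 0.766 and 0.0402 and an adult over cultured Myh7 ratio of 0.220. DESeq2 size factors gave cultured Myh6 at 2404 CPM and a transplanted over cultured ratio of 0.474. Without Ttn, Rn45s and Rpph1 in the total, cultured Myh6 and Myh7 were 3145 and 1222 CPM, with Myh6 ratios of 0.474 (adult over cultured) and 0.353 (transplanted over cultured). Over the 1514 genes with a count in every group, Myh6 was 1774, 1303 and 6547 CPM and Myh7 148 CPM in adult and 2543 CPM in cultured cells, with ratios to cultured of 0.271 (adult) and 0.199 (transplanted) for Myh6 and 0.0580 and 0.0104 for Myh7. Equal cell weights gave transplanted Myh6 at 1287 CPM, adult over transplanted Myh6 at 1.17, cultured Myh7 at 1415 CPM, adult over cultured Myh7 at 0.0897, a cultured share of 40.3% and balances of 0.129 (adult over cultured) and 0.0326 (transplanted over cultured). Equal depth per cell, added after the data were seen, gave a cultured share of 33.0%. Per exon length the shares were 6.10% in adult and 23.3% in cultured cells. That move follows from the annotated exon lengths, 8616 bp for Myh7 and 6726 bp for Myh6, unions over all transcripts. The transcripts used for the alignment are closer in length, 6135 and 6008 bases. Apart from the reversals and the exon lengths, the cause of these moves was not tested.

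Leaving out 1 cell at a time gave Myh6 at 1322 to 1569 CPM in adult, 967 to 1418 CPM in transplanted and 1436 to 3322 CPM in cultured cells, and ratios of 1.03 to 1.51 (adult over transplanted), 0.441 to 1.02 (adult over cultured) and 0.329 to 0.762 (transplanted over cultured). Myh7 was 17.0 to 147 CPM in adult, 8.13 to 30.3 CPM in transplanted and 527 to 1355 CPM in cultured cells, with ratios of 0.764 to 15.0, 0.0162 to 0.231 and 0.00776 to 0.0422. The share was 1.08 to 9.70% in adult, 0.695 to 2.47% in transplanted and 20.8 to 40.9% in cultured cells, and the balance 0.535 to 11.9, 0.0280 to 0.317 and 0.0180 to 0.0775. Counts over all lists were 27 higher and 19 lower (adult over transplanted), 24 and 41 (adult over cultured) and 19 and 47 (transplanted over cultured). The matching shares of all genes were 44.3% and 34.8%, 23.0% and 62.1%, and 22.5% and 64.0%. The number of genes measured over all lists is not given here, so the list counts are not compared with these shares. Under other scalings, weights and thresholds, with no cell left out, the list counts stayed within 1.5 times of their main values. Over the genes counted in every group, the adult over cultured split was 16 and 48. The cultured depth limits what an absent count shows, to 14.6 CPM for the group and 49.4 to 186 CPM for a cell.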
